A study of Mus musculus with 10 samples.

Results

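Csf1, Csf2, Csf3 and Lif encode the 3 colony-stimulating factors M-CSF, GM-CSF and G-CSF and leukemia inhibitory factor (LIF), secreted cytokines that act on blood-forming and many other cells. The genes were found in the deposited expression table by their Ensembl identifiers, and these 4 rows of 37991 were followed through all 10 libraries. In GRCm38, the assembly behind mm10, Csf1 (ENSMUSG00000014599) lies on chromosome 3 at 107741048 to 107760469 on the minus strand. The other members lie on chromosome 11: Csf2 (ENSMUSG00000018916) at 54247271 to 54249667 on the minus strand, Csf3 (ENSMUSG00000038067) at 98701263 to 98703629 on the plus strand and Lif (ENSMUSG00000034394) at 4257557 to 4272514 on the plus strand. All are protein-coding genes with transcripts in GENCODE M21, 7 for Csf1, 3 for Lif and 1 each for Csf2 and Csf3, and the table gives 1 value per gene and library.

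The cells were primary mouse keratinocytes, the main cells of the epidermis, cultured from skin taken at postnatal days 4 to 5 and profiled by poly(A) RNA sequencing. All animals carried the allele Bcl10tm1Mak, on both chromosomes in the knockouts (Bcl10-/-) and on 1 in the heterozygous littermates (Bcl10+/-), so no group was wild type. Each culture was kept without stimulation or given recombinant mouse IL-17A (200 ng/mL, 5 h), which gave 2 unstimulated and 2 IL-17A libraries from knockouts and 3 of each from heterozygotes. Libraries that share a genotype and a replicate number in the labels are called a culture here, so there were 5 cultures, each with 1 library per condition. The labels do not say whether a number stands for an animal, a litter or a well, and p-values therefore speak only of the variation among these libraries, some of which may be technical.

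GM-CSF and G-CSF support the production, survival and activation of neutrophils, and GM-CSF also acts on macrophages and dendritic cells. M-CSF supports macrophages through the receptor CSF1R, which it shares with IL-34, the ligand that maintains Langerhans cells in the epidermis. LIF belongs to the IL-6 family and signals through LIFR and the common subunit gp130 (Il6st) to JAK kinases and STAT3. IL-17A acts on keratinocytes through IL-17RA and IL-17RC and the adaptor ACT1 (Traf3ip2), and it is known both for switching on NF-kB, IkB-zeta and C/EBP factors and for slowing the decay of short-lived cytokine messages. BCL10 joins CARD-family proteins to the paracaspase MALT1 upstream of NF-kB, and the study asked how its loss alters keratinocytes and their answer to IL-17A.

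The keratins Krt5 and Krt14, which mark basal keratinocytes, stood at 4430 to 6426 and 3723 to 5015 FPKM (a level scaled for both transcript length and library depth), so the labelled cell type was borne out by its markers. Bcl10 itself was at 0.969 and 16.4 FPKM in knockout culture 1 (unstimulated, then IL-17A), 17.0 and 16.6 in knockout culture 2, 67.0 and 72.3 in heterozygous culture 2, and 59.5 and 60.6 in heterozygous culture 3. In the libraries labelled heterozygous culture 1 it was 18.0 and 16.3 FPKM, near the 16.4 to 17.0 of 3 of the 4 libraries labelled knockout and against their own label, and the unstimulated library of knockout culture 1 stands apart from its group. The titles also carry a number in brackets, 1 to 14 for both knockout cultures and heterozygous culture 1 and 33 to 38 for heterozygous cultures 2 and 3. No source used here says what that number records. Estimated depth was 51.6 M fragments in the IL-17A library of knockout culture 1 and 16.2 to 29.5 M in the other libraries.

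Many markers of several other cell types were listed at 0, while others of the same lists were not. Ptprc (CD45), Itgam, Adgre1 and Lyz2 of leukocytes, the 3 Cd3 genes of T cells, Cd207 of Langerhans cells and Ly6g, Mpo and Csf3r of neutrophils were listed at 0 in all 10 libraries, while Cd68 ranged from 5.10 to 10.5 FPKM. Of the same lists, Cxcr2 of neutrophils was at 0.0627 to 0.2905 FPKM. Cd74 and H2-Ab1 of Langerhans cells reached 0.0367 and 0.103 FPKM, and Csf1r of leukocytes reached 0.0243. The 3 endothelial markers summed to 4.39 to 6.04 FPKM, mostly Kdr (3.16 to 4.93) and Pecam1 (0.734 to 1.73), with Cdh5 at 0.0580 or less. The 6 fibroblast markers summed to 28.5 and 28.7 FPKM in the libraries of knockout culture 2, against 0.159 to 0.194 in those numbered 33 to 38. The 4 melanocyte markers summed to 164 to 190 FPKM in the libraries numbered 1 to 14 and to 307 to 393 in those numbered 33 to 38.

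The transcripts of the 4 genes differ in an element by which cytokine messages can be recognised for decay. It is the AU-rich pentamer ATTTA of the 3′ UTR, written here in DNA letters. The densest 30 bases of each 3′ UTR are shown because Csf2, Csf3 and Lif were higher with IL-17A in every culture and Csf1 was not. The stretches were read from GENCODE M21 transcripts, run 5′ to 3′, and have the pentamers in capitals.
Csf2: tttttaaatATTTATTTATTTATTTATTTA
Csf3: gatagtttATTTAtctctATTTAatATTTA
Lif: ATTTAttcaatgtcatATTTAaaatATTTA
Csf1: tttatataaggtcATTTAaatatctATTTA
The Csf2 stretch, at bases 230 to 259 after the stop codon, holds 5 overlapping pentamers, and only 19 of 10093 tested genes with a 3′ UTR (0.188%) have as many in any 30 bases. In all, Csf2 has 9 pentamers in 317 bases of 3′ UTR, or 28.4 per kb, a density above that of 99.9% of those genes. Csf3 has 6 in 669 bases (8.97 per kb, above 98.8%), and its stretch at bases 24 to 53 holds 3, which 2.31% of genes reach. Lif has 7 pentamers but in 3180 bases (2.20 per kb, above 67.5%), with 3 of them at bases 3080 to 3109. Csf1 has 4 in 2111 bases (1.90 per kb, above 61.5%), with 2 at bases 2021 to 2050, which 19.7% of genes reach. Across these genes the median count was 2, and 70.3% had at least 1. A match is a description of the letters and not a measured site of decay, and a link with the IL-17A changes was not tested.

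**Figure D1:**
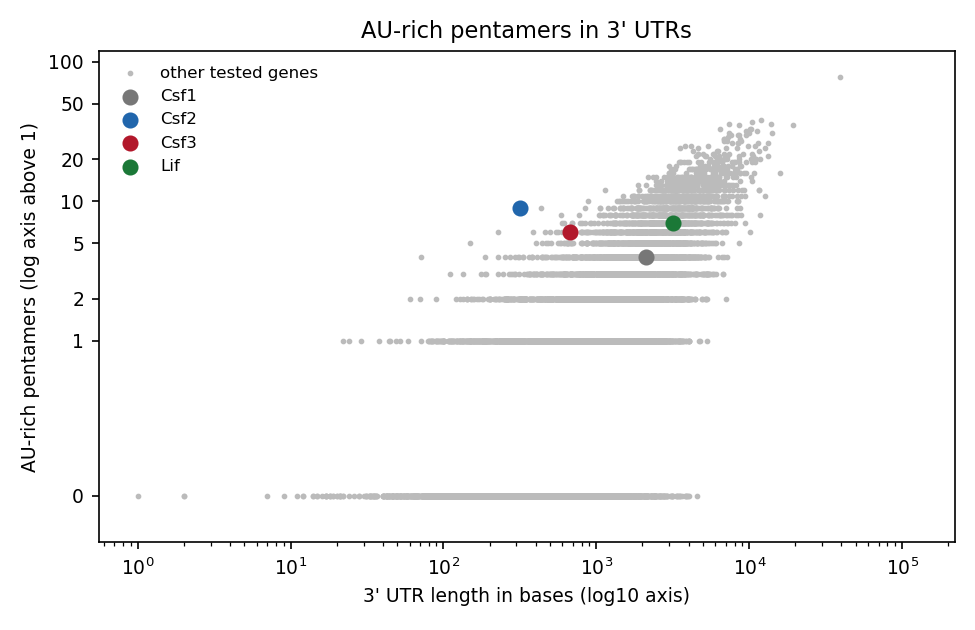
Pentamers per 3′ UTR (vertical, log axis above 1) against 3′ UTR length in bases (horizontal, log10 axis) for 10093 tested genes in grey and the 4 genes in colour. Csf2 lies above the grey cloud at its length of 317 bases, Csf3 at its upper edge, and Lif and Csf1 inside it.

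Csf2 spanned the widest range of the 4 genes, from 0.575 to 24.0 FPKM. Knockout culture 1 had 0.639 FPKM unstimulated and 1.28 with IL-17A, and knockout culture 2 had 0.575 and 2.12. Heterozygous cultures 1, 2 and 3 had 1.15, 12.6 and 15.5 FPKM unstimulated and 5.31, 23.1 and 24.0 with IL-17A. Each culture was higher with IL-17A, and every knockout library was below every heterozygous library of the same condition, but heterozygous culture 1 lay much nearer to the knockouts than to the other heterozygous cultures. The group means ran in the order knockout unstimulated 0.607 ± 0.0455 (SD, n = 2), knockout with IL-17A 1.70 ± 0.594 (n = 2), heterozygous unstimulated 9.73 ± 7.57 (n = 3) and heterozygous with IL-17A 17.5 ± 10.6 (n = 3). Within that order the knockout groups did not overlap, and each of the other neighbouring pairs did. With 2 libraries per group, non-overlap can arise without any effect, and its share of all tested genes was not counted.

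The ratios of Csf2 with IL-17A to without were 2.00 and 3.68 in knockout cultures 1 and 2 and 4.63, 1.84 and 1.55 in heterozygous cultures 1, 2 and 3. The 3 cultures with a low starting level had the larger ratios, and they also had the fewest fragments, about 10, 10 and 20 in their unstimulated libraries. The 95% counting intervals of the ratios were 1.04 to 4.55 and 1.76 to 8.63 in the knockout cultures, and 2.80 to 8.09, 1.54 to 2.20 and 1.34 to 1.80 in the heterozygous ones. All 5 intervals stood above 1. They cover counting error only, and the fragments behind them are estimates. The lowest bound, 1.04, belongs to knockout culture 1 and depends on the depth of its IL-17A library. That depth was estimated at 51.6 M fragments, against 16.2 to 29.5 M in the other libraries.

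Csf3 followed the same order over groups at a lower amplitude. Knockout culture 1 had 1.62 FPKM unstimulated and 3.10 after IL-17A, and knockout culture 2 had 2.60 and 4.40. In heterozygous cultures 1, 2 and 3 it was 2.22, 4.91 and 7.34 FPKM unstimulated and 5.84, 9.37 and 14.6 with IL-17A. With IL-17A every heterozygous library was above every knockout library, whereas unstimulated heterozygous culture 1 lay between the knockout cultures. Group means were 2.11 ± 0.691 (SD, n = 2) in unstimulated and 3.75 ± 0.920 (n = 2) in IL-17A-treated knockouts, then 4.82 ± 2.56 (n = 3) and 9.92 ± 4.39 (n = 3) in heterozygotes. The knockout groups did not overlap, again with 2 libraries in each and no count over all tested genes, and the other neighbours in that order did.

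The Csf3 ratio with IL-17A varied less from culture to culture than that of Csf2, at 1.91 and 1.69 in the knockout cultures and 2.63, 1.91 and 1.98 in heterozygous cultures 1, 2 and 3. Counting intervals (95%) were 1.39 to 2.68 and 1.24 to 2.28 in the knockouts and 1.93 to 3.53, 1.54 to 2.37 and 1.70 to 2.31 in the heterozygotes, from about 46 to 391 fragments per library. These intervals overlap one another, and each stands above 1.

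Lif was expressed at a nearly even level in every library, from 4.88 to 7.71 FPKM. Knockout culture 1 had 4.96 FPKM unstimulated and 5.49 after IL-17A, and knockout culture 2 had 6.46 and 7.09. Heterozygous cultures 1, 2 and 3 had 5.30, 4.88 and 5.70 FPKM unstimulated and 7.71, 6.60 and 7.40 with IL-17A. The heterozygous libraries did not overlap between conditions, and the knockout libraries did. Groups this small can separate without any effect, and the share of all tested genes that do so was not counted. Ratios ran from 1.10 in the knockout cultures to 1.46 in heterozygous culture 1, with a median of 1.30, and were above 1 in 5 of 5 cultures. In order, group means were 5.29 ± 0.411 (SD, n = 3) in unstimulated heterozygotes, 5.71 ± 1.06 (n = 2) and 6.29 ± 1.14 (n = 2) in knockouts without and with IL-17A, and 7.24 ± 0.573 (n = 3) in treated heterozygotes, and all neighbours overlapped.

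Csf1 had no common direction with IL-17A. Knockout culture 1 had 4.23 FPKM unstimulated and 3.60 after IL-17A, and knockout culture 2 had 7.93 and 7.69. Heterozygous cultures 1, 2 and 3 had 4.05, 7.87 and 9.91 FPKM unstimulated and 5.01, 7.26 and 9.22 with IL-17A. The level differed more between cultures than between conditions, with ratios of 0.850 to 1.24 and a higher value with IL-17A in 1 of 5 cultures. Group means were 5.65 ± 2.90 (SD, n = 2) and 6.08 ± 2.62 (n = 2) in knockouts with and without IL-17A and 7.16 ± 2.11 (n = 3) and 7.28 ± 2.97 (n = 3) in heterozygotes with and without it, and all neighbours overlapped. Knockout culture 2, which held the fibroblast markers, had Csf1 above knockout culture 1. Heterozygous cultures 2 and 3, with fibroblast marker sums of 0.159 to 0.194 FPKM, had 7.26 to 9.91 FPKM of Csf1. Whether fibroblasts contributed to the Csf1 level was not tested.

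**Figure D2:**
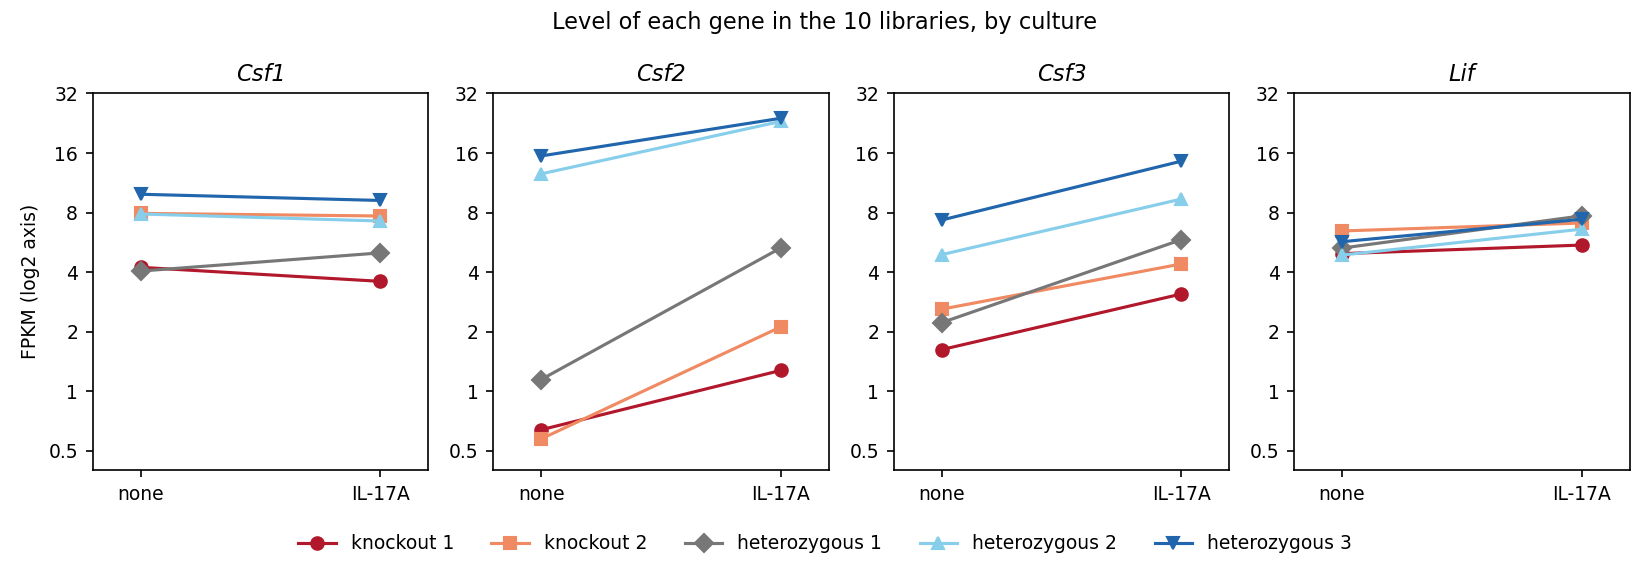
FPKM (vertical, log2 axis) of each gene without and with IL-17A, 1 line per culture, with no averaging. All 5 Csf2, Csf3 and Lif lines go up, the Csf1 lines stay near level, and heterozygous cultures 2 and 3 are far above the other 3 cultures for Csf2, at 12.6 and 15.5 FPKM against 0.575 to 1.15 unstimulated.

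**Figure D3:**
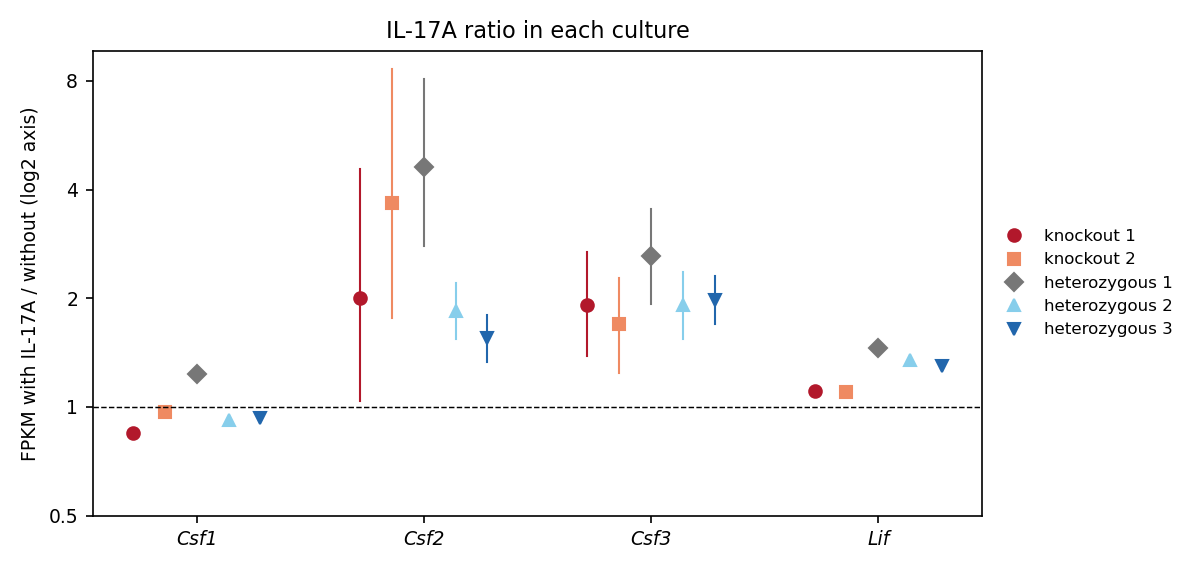
FPKM with IL-17A over FPKM without (vertical, log2 axis) in each culture. Bars are 95% counting intervals, drawn for Csf2 and Csf3 only, and the dashed line is a ratio of 1; the Csf3 ratios lie between 1.69 and 2.63 in all 5 cultures.

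The IL-17A response was tested across 12054 genes whose mean reached 1 FPKM by limma on log2(FPKM + 1). That scale understates the change of genes near 1 FPKM. Fold values given with limma results, here and below, are ratios of FPKM + 1 and not of FPKM. Averaged over both genotypes, the log2 change was 0.86 for Csf2 (SE 0.62), 0.77 for Csf3 (SE 0.30), 0.25 for Lif (SE 0.10) and -0.05 for Csf1 (SE 0.29). None of the 4 passed (limma adjusted p = 0.9999 for each), where 0.0498% of all tested genes passed; 2 members, Csf3 and Lif, were under an unadjusted p of 0.05. These differences were among the highest of all genes, at percentile 99.7 for Csf2, 99.7 for Csf3 and 97.7 for Lif, while Csf1 was at percentile 26.9. That fit leaves the difference between cultures in the spread.

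Same-numbered libraries had correlated deviations from their group means within each genotype, so the response was also fitted with culture as a block. That fit takes the numbers as pairs, which the labels do not state and these correlations do not settle. Csf3 then rose 1.71-fold in FPKM + 1 (log2 0.77, SE 0.06, limma adjusted p = 0.0278) and was higher in 5 of 5 cultures. That made 1 of 4 members called against 0.108% of all tested genes. That call was lost when both libraries of any 1 culture were left out (adjusted p = 0.0644 without heterozygous culture 1, and 0.140, 0.118, 0.103 and 0.132 without knockout cultures 1 and 2 and heterozygous cultures 2 and 3), while the log2 change stayed between 0.74 and 0.80. Csf2 (SE 0.16, adjusted p = 0.322) and Lif (SE 0.04, adjusted p = 0.297) did not pass there, nor did Csf1 (SE 0.07, adjusted p = 0.953). With 1 effect shared by the 5 cultures, an alternative added after the data were seen, Csf3 rose 1.75-fold (log2 0.81, SE 0.08, adjusted p = 0.0314), again 1 of 4 against 0.149%. Higher values in all 5 cultures were found for 3 of 4 members and for 3.65% of all tested genes. For Csf2, Csf3 and Lif the exact two-sided sign-flip permutation p over 5 cultures was 0.0625, the smallest that 5 cultures allow, and for Csf1 it was 0.6875.

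**Figure D4:**
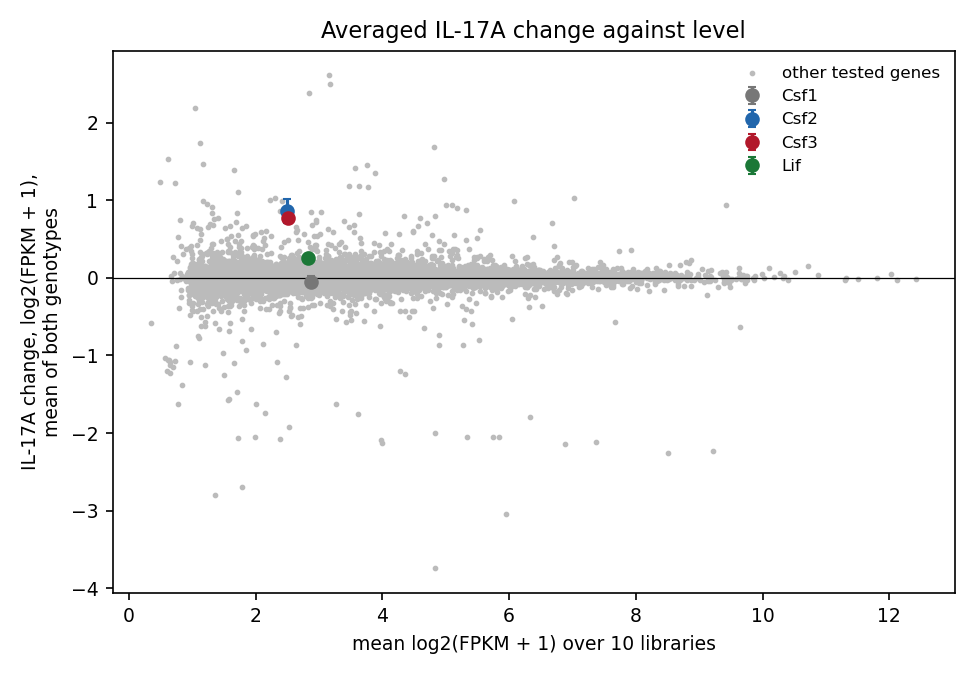
Averaged IL-17A change on the log2(FPKM + 1) scale (vertical) against the mean log2(FPKM + 1) over 10 libraries (horizontal) for 12054 genes in grey and the 4 genes in colour, with bars of 1 SE from the fit with culture as a block. Csf2 and Csf3, at 0.86 and 0.77, stand above the grey band, Lif is at its upper edge at 0.25 and Csf1 lies on the line at -0.05.

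Within the libraries labelled heterozygous, where culture 1 lay far below the others for Csf2, the log2 changes with IL-17A were 1.00 for Csf2 (SE 0.78), 0.93 for Csf3 (SE 0.38), 0.39 for Lif (SE 0.13) and 0.02 for Csf1 (SE 0.36). None of the 4 passed (limma adjusted p = 1 for each), where 0.00830% of all tested genes passed; 2 members, Csf3 and Lif, lay below 0.05 before adjustment. For the knockout label the changes were 0.73 for Csf2 (SE 0.95), 0.62 for Csf3 (SE 0.47), 0.12 for Lif (SE 0.15) and -0.11 for Csf1 (SE 0.44). Again 0 of 4 passed, against 0.0249% of all tested genes, and no member had an unadjusted p under 0.05. The Csf2 change in heterozygotes turned on culture 1, at 0.06 without its unstimulated library and 1.65 without its IL-17A library, neither of which passed. With culture as a block, the limma adjusted p of Csf3 was 0.0545 in heterozygotes and 0.294 in knockouts.

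Whether the response differed between the genotypes was tested as the difference of these changes, knockout minus heterozygous. It was -0.27 for Csf2 (SE 1.23), -0.32 for Csf3 (SE 0.60), -0.27 for Lif (SE 0.20) and -0.13 for Csf1 (SE 0.57), with limma adjusted p = 0.9997 for each. No member and 0% of all tested genes passed, and without a block no member had an unadjusted p under 0.05. For Csf2 the sign depended on the pseudocount, since the difference was 0.10 with a pseudocount of 0.1 in place of 1. With culture as a block the standard errors were smaller, and the differences of -0.32 for Csf3 (SE 0.11) and -0.27 for Lif (SE 0.09), both lower in knockouts, were under an unadjusted p of 0.05 but did not pass (limma adjusted p = 0.779 for each). Csf2 (SE 0.32, adjusted p = 0.829) and Csf1 (SE 0.14, adjusted p = 0.816) did not pass there either. A missed threshold does not show that the genotypes responded alike.

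Levels were then compared between genotypes. Unstimulated, the log2 difference of knockout from heterozygous was -2.29 for Csf2 (SE 0.87, limma adjusted p = 0.728), -0.82 for Csf3 (SE 0.43, adjusted p = 0.728), -0.20 for Csf1 (SE 0.41, adjusted p = 0.848) and 0.09 for Lif (SE 0.14, adjusted p = 0.815). None of the 4 passed and 0% of all tested genes did, with 1 member, Csf2, under an unadjusted p of 0.05. With IL-17A the differences were -2.55 for Csf2 (SE 0.87, adjusted p = 0.507), -1.13 for Csf3 (SE 0.43, adjusted p = 0.507), -0.34 for Csf1 (SE 0.41, adjusted p = 0.663) and -0.18 for Lif (SE 0.14, adjusted p = 0.538). None passed, against 0.0249% of all tested genes; Csf2 and Csf3 were under an unadjusted p of 0.05. All knockout libraries were below all heterozygous ones in both conditions for 1 member, Csf2, and for 3.72% of tested genes, and with IL-17A for 2 members, Csf2 and Csf3, and 13.8% of tested genes.

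These values rest on how the libraries of heterozygous culture 1 are counted. Without both of them Csf2 was lower in knockouts, by a log2 difference of -3.22 unstimulated (SE 0.17, limma adjusted p = 0.00127) and -3.21 with IL-17A (SE 0.17, adjusted p = 0.00125). Csf3 then differed by -1.19 unstimulated (SE 0.27, adjusted p = 0.0936) and was lower with IL-17A by -1.43 (SE 0.27, adjusted p = 0.0382). Those calls, of 1 member and of 2, stood against 0.970% and 6.65% of all genes tested without that culture, and the split of libraries is then that of the number sets below. Within the libraries numbered 1 to 14, in which heterozygous culture 1 is the only heterozygous culture, the differences were -0.42 and -1.24 for Csf2 (adjusted p = 0.988 and 0.611) and -0.07 and -0.54 for Csf3 (adjusted p = 0.990 and 0.977), unstimulated and with IL-17A. Without both libraries of knockout culture 1 the Csf2 differences were -2.31 and -2.32 and those of Csf3 -0.59 and -0.94, and none passed.

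Csf2 and Csf3 were divided by the number sets of the titles. This comparison, libraries numbered 33 to 38 against those numbered 1 to 14 as the mean of both conditions, was added after the data were seen. Csf2 stood at 12.6 to 24.0 FPKM in the libraries numbered 33 to 38 and at 0.575 to 5.31 in the rest. As ratios of FPKM + 1, Csf2 was 7.64-fold higher in the former (log2 2.93, SE 0.25, limma adjusted p = 0.000272) and Csf3 2.31-fold higher (log2 1.21, SE 0.18, adjusted p = 0.00194). Csf1 was 1.53-fold higher (log2 0.62, SE 0.21, adjusted p = 0.0423), and for Lif the log2 difference was -0.0032 (SE 0.10, adjusted p = 0.983). As 45.1% of all tested genes passed, a call in this comparison, here of 3 of 4 members, is common. With culture as a random effect Csf2 (adjusted p = 0.000969) and Csf3 (adjusted p = 0.00446) passed and Csf1 (adjusted p = 0.0604) did not, which is 2 of 4 against 33.8%. In both conditions every library numbered 33 to 38 was above every other for 2 members, Csf2 and Csf3, and for 21.3% of tested genes.

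Several other things moved with the number sets. The libraries numbered 33 to 38 were those with Bcl10 at 59.5 to 72.3 FPKM, against 0.969 to 18.0 in the rest, they were all heterozygous, and they had the higher sums of melanocyte markers (307 to 393 against 164 to 190 FPKM). Marker sums were lower in them for basal keratinocytes, at 8493 to 9928 against 10800 to 12130 FPKM, for differentiated keratinocytes, at 8.64 to 13.5 against 14.2 to 21.5, and for macrophages and other leukocytes, at 5.10 to 6.73 against 7.79 to 10.6, a sum that is nearly all Cd68. Genotype, Bcl10 level, number set and these marker sums cannot be told apart for heterozygous cultures 2 and 3, and in bulk RNA fewer cells of a type and less RNA per cell cannot be told apart either. The IL-17A changes of the 2 sets differed by -0.29 for Csf2 (SE 0.50), 0.08 for Csf3 (SE 0.37), 0.11 for Lif (SE 0.21) and -0.11 for Csf1 (SE 0.43), none of which passed (limma adjusted p = 0.9998 for each).

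Over the 10 libraries Csf2 and Csf3 moved most nearly together of the 4 genes, with a Pearson r of log2(FPKM + 1) of 0.925. The other pairs had r of 0.666 (Csf1 and Csf3), 0.649 (Csf1 and Csf2), 0.586 (Csf3 and Lif), 0.349 (Csf1 and Lif) and 0.286 (Csf2 and Lif). These points share libraries, cultures and the number sets, so r is a description only. Of 12053 other tested genes, those most like Csf2 were Inhba, an activin subunit (0.990), Edn1, endothelin-1 (0.989), Il23a, the p19 subunit of IL-23 (0.987), Sft2d2 (0.982) and 4930438A08Rik (0.981). Those most like Csf3 were the epidermal transcription factor Grhl3 (0.986), Ier3 (0.975), the kinase Ikbke (0.974), Mllt11 (0.967) and Gk (0.957). For Lif they were Klf7 (0.914), Alas1 (0.911), Rprd1b (0.900), Raph1 (0.892) and Gm14008 (0.877), and for Csf1 Idh1 (0.965), Epb41l2 (0.962), Hoxa9 (0.949), Kdm6a (0.944) and Tbl1xr1 (0.940).

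Edn1 shows the pattern shared with Csf2. Knockout culture 1 had 14.6 FPKM unstimulated and 15.3 after IL-17A, knockout culture 2 had 17.0 and 19.5, and heterozygous culture 1 had 15.9 and 26.3. In heterozygous cultures 2 and 3 it was 44.5 and 53.4 and 43.2 and 50.9 FPKM. Il23a was at 3.21 to 6.62 FPKM in the libraries numbered 1 to 14 and at 14.7 to 18.6 in those numbered 33 to 38. For both genes, as for Csf2, every library numbered 33 to 38 was above every other. They were picked for their likeness to Csf2 over these same libraries, so the shared division follows from that choice. In both conditions 21.3% of tested genes were divided in this way.

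The ligands closest to these cytokines gave a range of levels and no call for IL-17A or genotype. Of 16 listed ligands 15 were in the table and 6 reached the test, and with IL-17A averaged over both genotypes 0 passed, with a median log2 change of -0.02 against -0.01 over all tested genes. Tslp, the epithelial cytokine that acts on dendritic cells, was the highest, from 17.3 FPKM upward with a median of 24.1, with a change of 0.19 (SE 0.18), and Ctf1, an IL-6 family member, had -0.12 (SE 0.12). Kitl, which encodes the ligand of KIT, was at 7.26 to 12.2 FPKM. Il34, the other ligand of CSF1R, was at 2.19 to 4.34 FPKM, against 3.60 to 9.91 for Csf1. Osm, Il3, Il5 and Thpo were listed at 0 in every library, and Il6 reached 0.0850 FPKM in 1 library. Between the number sets Il34 (1.37-fold, limma adjusted p = 0.00711) and Clcf1 (1.35-fold, adjusted p = 0.0183) were higher in the libraries numbered 33 to 38, which is 2 of 6 against 45.1% of all tested genes.

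The receptors were split by ligand. Csf3r and Csf2rb, the signalling chains for G-CSF and GM-CSF, were listed at 0 in all 10 libraries, Csf2rb2 reached 0.0550 FPKM and Csf1r 0.0243 FPKM. Csf2ra, the ligand-binding chain for GM-CSF, stood at 0.716 to 1.41 FPKM. Il6st was at 20.5 to 25.5 FPKM, but Lifr, its partner for LIF, was at 0.0984 to 0.345 and Osmr at 0.686 to 1.14 FPKM. Of 10 receptors 4 were tested and 0 passed for IL-17A, with a median of 0.07, the smallest p being those of Il6st (0.09, SE 0.08) and Csf2ra (0.11, SE 0.10). Il6ra was 1.74-fold lower in the libraries numbered 33 to 38 (limma adjusted p = 0.00109), which is 1 of 4 against 45.1% of all tested genes.

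**Figure D5:**
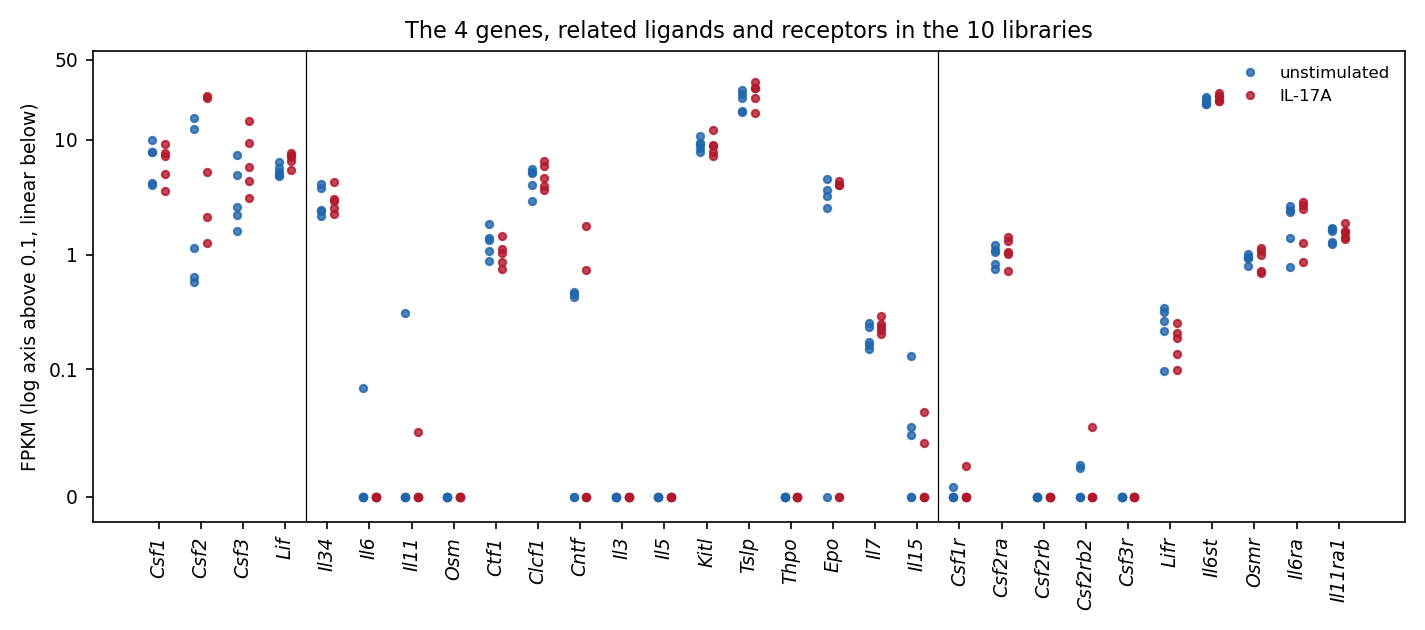
FPKM in each of the 10 libraries (vertical, log axis above 0.1 and linear below) for the 4 genes, 15 related ligands and 10 receptors, with unstimulated libraries in blue and IL-17A in red. Csf2rb and Csf3r lie at 0 in all libraries, and Il6st lies at 20.5 to 25.5 FPKM while its partner Lifr stays below 0.345.

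Downstream of these receptors, 15 of 18 JAK-STAT and feedback genes were tested and 0 passed for IL-17A (median -0.01), with Socs1, a feedback inhibitor of JAK kinases, at 0.17 (SE 0.14). Socs3, a feedback inhibitor that STAT3 switches on, was at 2.51 to 4.46 FPKM and was 1.33-fold lower in the libraries numbered 33 to 38 (limma adjusted p = 0.00299). In that comparison 1 gene of this list passed upward, the kinase gene Pim1 (1.28-fold, adjusted p = 0.00767), and 4 downward, Socs3, Stat3 (1.23-fold), Jak1 (1.15-fold) and Cish (1.16-fold), which is 5 of 15 against 45.1% of all tested genes. With culture as a random effect Stat3 (adjusted p = 0.0522) and Cish (adjusted p = 0.0799) did not pass.

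Regulators of cytokine message decay were tested for 15 of 16 genes. With IL-17A averaged over genotypes and no block 0 passed and the median log2 change was -0.01. Zc3h12a, which encodes the ribonuclease Regnase-1, had 6.25, 8.12, 6.06, 9.95 and 13.1 FPKM unstimulated and 21.4, 21.4, 20.9, 21.5 and 28.0 with IL-17A in knockout cultures 1 and 2 and heterozygous cultures 1, 2 and 3. Its conditions did not overlap, and the share of all tested genes for which that holds was not counted. The log2 change was 1.35 (SE 0.19, limma adjusted p = 0.0771), and with culture as a block Zc3h12a rose 2.55-fold (SE 0.11, adjusted p = 0.0354), the only gene of the list to pass. Zc3h12c, a relative, had 0.19 (SE 0.09). Between number sets 3 genes of this list were higher in the libraries numbered 33 to 38 (Zc3h12a 1.36-fold, Tia1 1.33-fold, Rc3h2 1.18-fold) and 4 were lower, among them Zfp36l2, of the family that binds AU-rich elements (1.53-fold, adjusted p = 0.000719) and Khsrp, another protein that binds them (1.89-fold, adjusted p = 0.000725); Hnrnpd was 1.37-fold and Cnot1 1.30-fold lower. That is 7 of 15 against 45.1% of all tested genes, and with culture as a random effect Tia1 (adjusted p = 0.117) and Rc3h2 (adjusted p = 0.0580) did not pass.

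Among 20 transcription factors listed here as candidates for acting on CSF and LIF genes, 19 were tested. The median log2 change with IL-17A, averaged over both genotypes, was 0.12, against -0.01 over all tested genes. Of the 19, 18 were above 0, where 46.3% of all tested genes were. The count was 14 in heterozygotes, 19 in knockouts and 16 with 1 effect shared by the 5 cultures. For all 19 the change was lower in the libraries numbered 33 to 38 than in those numbered 1 to 14. The median of that difference was -0.17, against -0.01 over all tested genes, and 0 passed for it. For averaged IL-17A, Nfkbiz, which encodes IkB-zeta, was the only one to pass upward without a block (1.86-fold, log2 0.90, SE 0.11, limma adjusted p = 0.0419), and none passed downward. It was at 23.2 to 30.3 FPKM unstimulated and 40.7 to 55.0 with IL-17A; with culture as a block the call was lost (adjusted p = 0.0693). Cebpd, encoding C/EBP-delta, was at 15.9 to 21.0 FPKM unstimulated and 25.8 to 32.3 with IL-17A, and passed with the block (1.59-fold, adjusted p = 0.0470) but not without it (adjusted p = 0.0688). Between number sets 4 of the 19 were higher in the libraries numbered 33 to 38, Relb (1.65-fold), Ets1 (1.63-fold), Nfkb2 (1.59-fold) and Junb (1.29-fold), and 6 were lower, Jun (1.35-fold), Ets2 (1.28-fold), Fosl1 (1.28-fold), Jund (1.25-fold), Cebpa (1.23-fold) and Fosl2 (1.22-fold), against 45.1% of all tested genes. With culture as a random effect Fosl1 (adjusted p = 0.0599), Cebpa (adjusted p = 0.0813) and Jund (adjusted p = 0.112) did not pass.

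In IL-17 receptor signalling 16 of 19 genes were tested and 0 passed for IL-17A (median -0.02), with Traf3 at -0.20 (SE 0.10) and Chuk at -0.13 (SE 0.07). Between number sets Bcl10 (5.31-fold, limma adjusted p = 0.00999) and Ikbkg (1.29-fold) were higher in the libraries numbered 33 to 38, and Malt1 (1.65-fold), Card10 (1.55-fold) and Il17rc (1.34-fold) were lower, which is 5 of 16 against 45.1% of all tested genes. With culture as a random effect Ikbkg (adjusted p = 0.0857) and Il17rc (adjusted p = 0.0615) did not pass.

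Letters that resemble factor motifs were searched in RefSeq promoter windows of GRCm38.p6, 250 bases before to 50 after a gene's start, for 3 of the 4 members; Csf3 had no entry there. The motifs were GGGANNNNCC for NF-kB, TGANTCA for AP-1, TTNNGNAA for C/EBP and TATAAA for the TATA box, on both strands, and they occur in 20.7%, 7.81%, 40.7% and 13.6% of all 32851 windows. NF-kB letters stood in each of the 3 windows. The stretches upstream of Csf1 (chr3:107760590-107760649, minus strand) and Lif (chr11:4257365-4257424, plus strand) are shown because the former had no common direction with IL-17A and the latter was higher in 5 of 5 cultures, with the NF-kB letters in capitals; in Csf1, matches on both strands overlap by all but 1 base.
Csf1: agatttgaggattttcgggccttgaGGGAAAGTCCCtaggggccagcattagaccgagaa
Lif: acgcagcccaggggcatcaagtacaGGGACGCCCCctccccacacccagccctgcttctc
In Csf1 these letters start 155 bases before the RefSeq start, with a further match at 231 bases before it. Lif has its match at 178 bases before the start and AP-1 letters at 228 bases before it. The Csf2 window has NF-kB letters at 23 to 32 bases after the RefSeq start and C/EBP letters at 145 before it, but that start lies 232 bases upstream of the GENCODE start, so the bases just before the latter lie outside the window. A match is no measured binding, and its absence says only that the letters are not in the window.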

How the data were processed

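Poly(A) RNA of 10 keratinocyte libraries was measured, and the authors deposited 1 table of FPKM values per Ensembl gene. Per the submitters' processing notes, mm10 was the build and HISAT2, SAMtools, StringTie and DESeq2 were used; no source used here gives versions, the role of each tool, annotation or strand setting. Values where genes overlap, or sit opposite an antisense gene, are therefore uncertain. Of 37991 identifiers 32919 were matched to a symbol and position in GENCODE M21, and 17074 stood at 0 in every library.

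Values were analysed as log2(FPKM + 1) in R 4.3.3 with limma 3.58.1 (mean-variance trend, 4 group means, 10 libraries in 1 fit, no block). Genes whose mean reached 1 FPKM (12054) were tested two-sided, with Benjamini-Hochberg adjustment over all of them and a threshold of 0.05. A family of 6 comparisons was computed per member (IL-17A in each genotype and averaged, genotype in each condition, and the difference in response); the number sets were added after the data were seen. The fit was also run on simulated data with independent noise and added IL-17A effects. Those data held no culture, genotype or number-set effect, so the run does not show how such effects bear on the calls.

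Members, lists and tests were chosen with earlier results of these data known. Text names all 4 members, list genes past the threshold or with the 2 smallest p for averaged IL-17A, the 5 genes most like each member, Bcl10 and markers; Kitl, Il34 and the receptors below the filter are named for their roles. Of the genes this rule covers, 1 is not reported here. Pairing was checked before fits were compared. Across genes, same-numbered libraries had correlated deviations from their group means, with r of 0.607, 0.488 and 0.137 in heterozygous cultures 1 to 3. With 2 knockout libraries per condition the deviations mirror each other, so both knockout cultures give the same r, 0.227. In heterozygotes the split between number sets enters these deviations, so the check cannot separate pairing from it. Numbers were taken to pair libraries within a genotype.

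Depth is not in the table. It was estimated from how low values of single-exon genes (300 to 3000 bp) step up by whole fragments; 36.8% to 51.6% of them were whole to within 0.05 (10% if evenly spread), so fragment numbers and counting intervals are approximate. Alternatives were the pseudocount, filters on low values, TPM and median-of-ratios scaling, no trend, library weights, culture as a block (also with each culture left out), fits of only the compared groups, and each library or culture left out.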

Additional observations from a re-analysis of the deposited data

How the results depend on the processing

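Culture as a replicate block moved the members called for IL-17A averaged over genotypes from 0 to 1, Csf3 (0.77, adjusted p = 0.0278), as did the block with 1 shared effect (1, Csf3 0.81, adjusted p = 0.0314); it changed no other member's call. The first of these calls was lost without any 1 culture. Library weights raised the members called to 3 (Csf2, Csf3, Lif) for IL-17A in heterozygotes, where 4656 genes were called. For genotype they raised the members called to 2 (Csf2, Csf3) in each condition. The share of all tested genes called for genotype with these weights is not given here. Calls for genotype reached 2929 genes unstimulated and 3551 with IL-17A over all alternatives, so these 2 cannot be read as particular to the members. Estimation of the weights did not converge and put 11.8 and 33.4 on heterozygous culture 3. Without both libraries of heterozygous culture 1, 1 member was called for genotype unstimulated and 2 with IL-17A, where 0.970% and 6.65% of all genes tested were called. The averaged Csf1 change, -0.05, ran from -0.28 to 0.18 with single libraries or cultures left out and was 0.068 in the libraries numbered 1 to 14; no value passed. Under all 31 alternatives the averaged change stayed positive, at 0.40 to 1.26 for Csf2 (0.86 as reported, lowest without the unstimulated library of heterozygous culture 1), 0.59 to 0.95 for Csf3 and 0.17 to 0.33 for Lif. Between number sets Csf2 (2.75 to 3.63) and Csf3 (0.94 to 1.48) passed in all 21 alternatives and Csf1 in 6. Over alternatives, all genes called numbered 0 to 4656 (heterozygotes, 1 as reported), 0 to 14 (knockouts, 3), 0 to 2929 and 0 to 3551 (genotype unstimulated, 0, and with IL-17A, 3), 0 to 17 (difference, 0), 1 to 36 (averaged, 6) and 1713 to 5767 (number sets, 5442). Depth limits Csf2, with about 10 fragments in each unstimulated knockout library; for Csf1 and Lif fragments were not estimated.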
